A study of Mus musculus with 8 samples.

Results

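Ribosome biogenesis and nucleolar genes were examined in activated mouse B cells that had lost Prmt5, the enzyme that places most symmetric dimethyl marks on protein arginines. The members are 54 genes listed by symbol, of 39017 genes in the deposited table, chosen for their roles: 7 of RNA polymerase I transcription, 4 of the box C/D and 4 of the box H/ACA small nucleolar ribonucleoproteins (snoRNPs), 20 of small subunit assembly, 13 of large subunit assembly and 6 abundant nucleolar proteins. Every symbol matched 1 row.

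The cells were splenic B cells of C57BL6/J mice, activated on 40LB feeder cells, fibroblasts that express CD40L and BAFF, with IL-4 at 1 ng per mL, and separated from the feeders by elutriation on day 4. The 4 Prmt5-null libraries came from Prmt5 F/F Cγ1-cre mice 10617, 10618, 10770 and 10771, and the 4 control libraries from the Cγ1-cre mice labelled CTRL-10650, then CTRL-10370, CTRL-10596 and last CTRL-10597. Values of single libraries are given in this order. Both genotypes thus carry the Cre transgene, which the Cγ1 promoter drives in B cells once they are activated. Cells that have not yet recombined can be present. The paper describes Prmt5 and symmetric dimethyl arginine as fully depleted on day 4. RNA depleted of ribosomal RNA was sequenced, so the data hold the messenger RNAs of the assembly factors and not the ribosomal RNA they act on.

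Ribosomes are built in the nucleolus, where RNA polymerase I transcribes the ribosomal RNA precursor. Box C/D and H/ACA snoRNPs guide its methylation and pseudouridylation, and several of them also act in its cleavage. Separate sets of assembly factors then fold, cut and export the small and large subunits, and proliferating B cells express these genes strongly.

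The targeted gene was measured first. Prmt5 lay between 1060 and 1994 normalized counts in the Prmt5-null and between 11084 and 13087 in the control libraries, so the genotypes did not overlap. Libraries held 42752293 to 47174851 reads on genes in Prmt5-null and 36731721 to 50366174 in control. B cell markers were abundant in both genotypes (summed normalized count 148894 to 177102 in Prmt5-null, 147135 to 170421 in control), although 1 of the 6, Cd79a, was lower. Markers of feeder fibroblasts were present as well, with 3 of 11 called higher in Prmt5-null by limma (Col1a2, Sparc and Col3a1). DESeq2 called 5. Of the 11, 2 were below the filter and none was at 0 in all libraries. All 9 tested had a log2 fold change above 0, with a median of 0.72. The summed level was 7404 to 12467 in Prmt5-null against 4850 to 8421 in control. Their part in the member values was not tested. Of 5 T cell markers none reached a mean of 10 and Cd3e was listed at 0. Of 5 myeloid markers 1, Adgre1, was higher, and the summed level was 171 to 298 in Prmt5-null and 104 to 215 in control. At the threshold given below, 7.33% of all genes tested were lower in Prmt5-null and 6.51% higher.

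As a group, the ribosome biogenesis members held similar shares of all normalized counts in both genotypes. The share was 0.887, 0.805, 0.778 and 0.809% in the Prmt5-null libraries and 0.816, 0.793, 0.819 and 0.889% in the control libraries, and the ranges overlapped. In such bulk samples fewer cells of a type and less RNA per cell cannot be told apart. All 54 members passed the filter of a mean of at least 10 normalized counts. The median log2 fold change, Prmt5-null minus control, was -0.035 over the members and 0.0024 over the 16250 genes tested, with 32 members below 0 and 22 above.

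Few single members changed. At an adjusted p below 0.05 (limma, Benjamini-Hochberg over all genes tested), 4 members, or 7.41%, were lower in Prmt5-null, against 7.33% of all genes. In the other direction 1 member, or 1.85%, was higher, against 6.51% of all genes. Both directions together gave 5 members, or 9.26%, against 13.8% of genes. No member also reached 1.5-fold in limma, whereas 6.48% of genes did. By the same threshold of 1.5-fold, 1 member passed with edgeR and 1 with DESeq2, in both cases Polr1c. In limma 13 members had an unadjusted p below 0.05, none of them at 1.5-fold. The share of all genes at that unadjusted p was not counted. This count and later ones of its kind therefore have no background and are not read as a result.

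Most members were measured closely enough to bound their change. The 95% interval of the log2 fold change lay within 1.5-fold of no change for 51 of 54 members (94.4%), and within 1.2-fold for 21. Among all genes tested the 1.5-fold bound held for 57.4%, and among the 8661 genes at least as high as the lowest member it held for 84.7%. The 3 members whose interval passed that bound were Nop56, Imp4 and Polr1c.

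**Figure D1:**
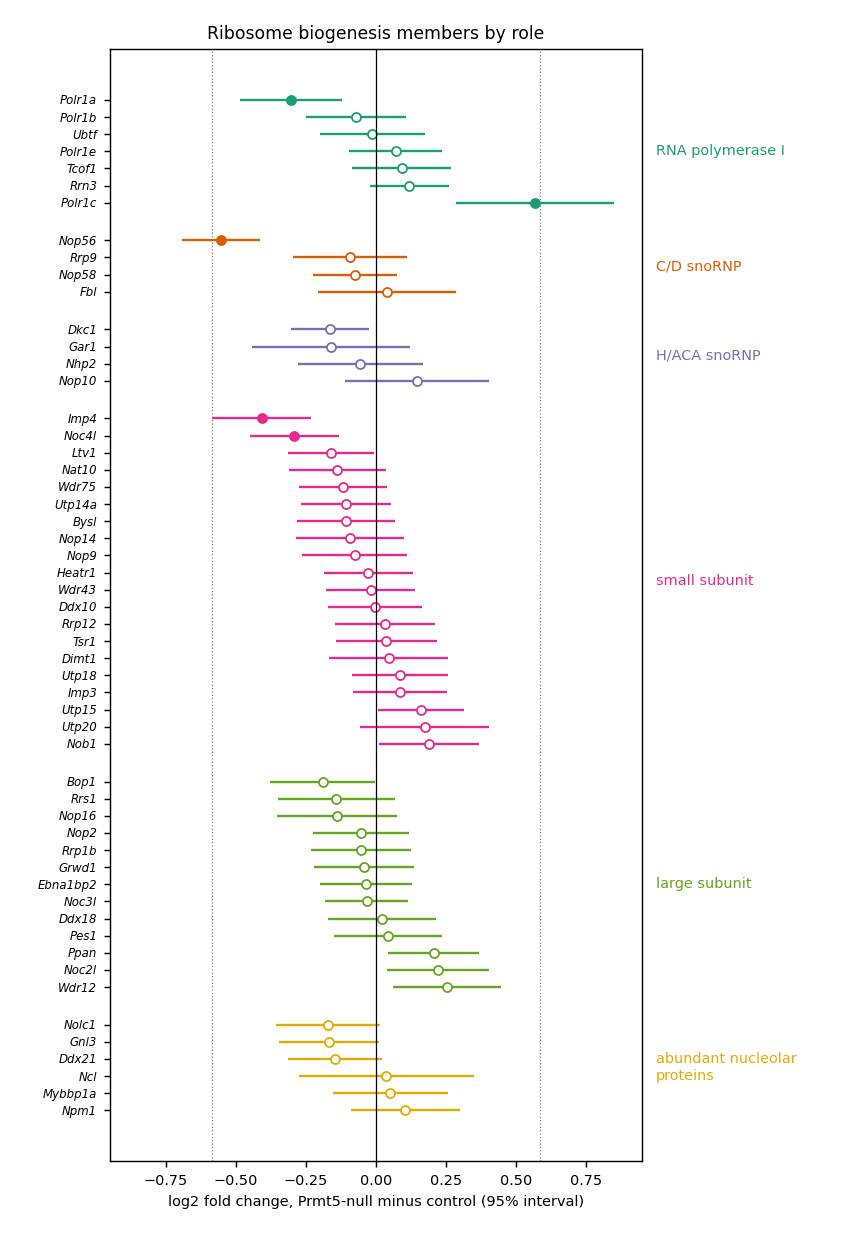
Log2 fold change (x axis, Prmt5-null minus control) of each of the 54 members (y axis, grouped by role), with its 95% limma interval from 4 libraries per genotype. Filled points have an adjusted p below 0.05, open points do not, dotted lines mark 1.5-fold, and the filled points are Polr1a, Polr1c, Nop56, Imp4 and Noc4l.

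Members whose genotypes did not overlap were counted next. The Prmt5-null libraries were all below the control libraries for 6 members, or 11.1%, against 10.2% of genes tested. These were Nop56, Dkc1, Polr1a, Imp4, Noc4l and Ltv1. They were all above for 5 members, or 9.26%, against 9.67% of genes tested, namely Polr1c, Rrn3, Ppan, Wdr12 and Utp15.

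**Figure D2:**
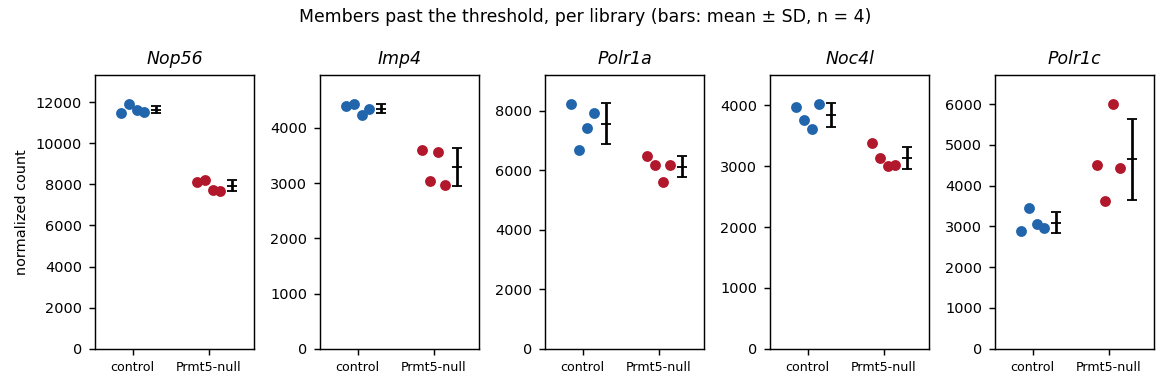
Normalized counts (y axis, from 0) of the 5 called members in each of 4 control (blue) and 4 Prmt5-null (red) libraries, with mean and SD. Nop56, Imp4, Polr1a and Noc4l lie lower and Polr1c higher in every Prmt5-null library, and Polr1c spans 3619 to 6004 in Prmt5-null.

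The largest fall was that of Nop56, a core protein of the box C/D snoRNP, which holds the guide RNAs together with Nop58 and the methyltransferase fibrillarin (Fbl). Nop56 (GRCm38, chromosome 2, plus strand) was at 8119, 8204, 7729 and 7685 normalized counts in the Prmt5-null libraries. In the control libraries it was at 11486, 11909, 11630 and 11523. The 2 sets were far apart, with the highest Prmt5-null library well below the lowest control library. Nop56 fell by 0.55 on the log2 scale (SE 0.06, adjusted p = 0.000282, limma, lower in 4 of 4 libraries), to 0.682 of the control level, and its adjusted p ranged from 2.38e-17 to 0.00277 over the alternatives.

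The other box C/D proteins did not pass the test. Nop58, the partner of Nop56, was at 11408, 10871, 11616 and 10823 normalized counts in Prmt5-null and at 11044, 11966, 11586 and 12535 in control, with overlapping genotypes (log2 fold change -0.07, 95% interval -0.23 to 0.08). For Fbl, the methyltransferase of the particle, the log2 fold change was 0.04 (interval -0.21 to 0.28). Rrp9, which belongs to the U3 particle, had a log2 fold change of -0.09 (interval -0.30 to 0.11). A called change was thus found for 1 of 4 box C/D genes, beside 13.8% of all genes tested.

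Nop56 also had an event in the splicing tables, and its sequences are shown because the alternative part of the exon holds a snoRNA gene. Introns of Nop56 host box C/D snoRNAs, and alternative splicing at such an intron is a known feature of this gene. The exon has a short form (chromosome 2, 130277032 to 130277132, plus strand) and a long form (130277032 to 130277314) that adds 182 bases. In the GENCODE annotation the short form is in 2 protein-coding transcripts and the long form in 1 transcript, of the type targeted by nonsense-mediated decay. Both donor sites are given with 10 exon and 20 downstream bases, the last 3 exon bases and the next 6 in capitals:
Nop56 short-form donor (chr2:130277123-130277152): ccctgttCAGGTACCAgtgagggcgcctgc
Nop56 long-form donor (chr2:130277305-130277334): gagtttcCAGGTCAGCaaattggatgcctt
The added 182 bases hold all 86 bases of the snoRNA gene Gm23187 (chromosome 2, 130277195 to 130277280). Its ends carry the 2 motifs that define the class, box C (core TGATG) and box D (CTGA), in capitals:
Gm23187 first 30 bases (chr2:130277195-130277224): gattacaaTGATGgctgaccagggcaacct
Gm23187 last 30 bases (chr2:130277251-130277280): gtgatggccagtcctggtgtCTGAgtgatt

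The share of the long form was higher in Prmt5-null. Inclusion levels are the fraction of the long form, computed here from the authors' read counts with correction for length. They were 0.138, 0.176, 0.216 and 0.227 in control and 0.255, 0.292, 0.309 and 0.343 in Prmt5-null. Values are in ascending order because the deposited lists name no library. The genotypes did not overlap, and the mean went from 0.189 to 0.300. The event rested on 533 to 1133 reads per library. Because tables of events list those with differences, this is a description and no test was made.

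Reads were also summed by form. Reads of the short form, per 1000000 reads on genes and summed over 4 libraries, were 14.6 in control and 6.68 in Prmt5-null, a ratio of 0.459. Reads of the long form were 8.26 and 7.07, a ratio of 0.856. They include reads on the added bases, where Gm23187 had a mean of 332 normalized counts in control and 303 in Prmt5-null. Long-form and snoRNA reads cannot be told apart there, so the 2 ratios are not compared. By junction reads alone the mean share of the long form was 0.194 in control and 0.290 in Prmt5-null. Reads of the short form fell further than the normalized count of the gene, which was 0.682 of control, and this difference was not tested.

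A second event of Nop56 in the tables concerns the same long exon counted as a cassette exon. By junction reads its inclusion level was 0.404 to 0.506 in control and 0.224 to 0.350 in Prmt5-null. When reads on the exon body were counted too, the levels overlapped, at 0.466 to 0.566 and 0.404 to 0.530. The direction of this event relative to the first depends on which competing form is set against the long exon.

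The partner protein Nop58 had a similar arrangement with few reads. A cassette exon of 177 bases (chromosome 1, 59692552 to 59692728, plus strand) overlaps the snoRNA gene Gm26293 by 41 of its 84 bases, and the annotation has that exon in 1 transcript of the nonsense-mediated decay type. The ends of this snoRNA gene are shown for comparison with those of Gm23187:
Gm26293 first 30 bases (chr1:59692509-59692538): ctcaatgttgtcaaTGATGcatcttattgg
Gm26293 last 30 bases (chr1:59692563-59692592): attcgtcactaccaCTGAgacaacattgag
Inclusion was 0.852 to 1.0 in control and 0.712 to 0.826 in Prmt5-null. Only 14 to 28 reads per library lay behind it, with at most 3 skipping reads in a library, and by junction reads the genotypes overlapped. Reads on the exon can include those of Gm26293, which had a mean of 44.2 normalized counts in control and 37.2 in Prmt5-null. Exon and snoRNA reads cannot be told apart there.

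The snoRNA genes themselves were read from the gene table. The members host 23 annotated snoRNA genes in 8 host genes, of which 22 passed the filter. None was called by limma, 1 had an unadjusted p below 0.05, none was called by edgeR, and 1 by DESeq2. Of the 22, 17 had a log2 fold change below 0, with a median of -0.26 beside 0.0024 over all genes tested. All genes were not matched to them for level, and their share below 0 was not counted. Those of 1 host share its transcript, and of the 23 there were 5 in Nop56 and 4 in Nop58. A common fall was not tested. The gene called by DESeq2 was Snord82 in Ncl, with 8.33 to 31.7 normalized counts in Prmt5-null and 25.9 to 85.3 in control (log2 fold change -1.16, SE 0.44, limma adjusted p = 0.105). Gm23187, in Nop56, was at 251 to 347 normalized counts in Prmt5-null and 257 to 375 in control (log2 fold change -0.13, SE 0.15). Reads on a snoRNA gene and on its host transcript cannot be told apart in these counts, and RNAs this short are poorly captured by such libraries.

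Of 7 RNA polymerase I genes 1 was called lower and 1 higher, beside 7.33% and 6.51% of all genes. Polr1a, the largest subunit with the catalytic site, was at 6477, 6183, 5614 and 6183 normalized counts in Prmt5-null and at 8223, 6659, 7430 and 7929 in control, with no overlap. It fell by 0.30 on the log2 scale (SE 0.08, limma adjusted p = 0.0312, lower in 4 of 4 libraries). This call was lost without the Prmt5-null library of mouse 10771 (adjusted p = 0.0743, limma) and without the libraries CTRL-10650 (0.0882), CTRL-10596 (0.0679) or CTRL-10597 (0.0844). It was also lost in limma without a trend (adjusted p = 0.0736). With 2 assumed experiments as a block, it was lost in some of the 18 placements of libraries (highest adjusted p = 0.0554, limma). The range over the alternatives was 0.00892 to 0.0882.

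Polr1c, a subunit shared by RNA polymerases I and III, was the only member called higher. It was at 4517, 3619, 6004 and 4439 normalized counts in Prmt5-null and at 2877, 3454, 3069 and 2967 in control. All 4 Prmt5-null libraries lay above the control libraries, but mouse 10618 stood only a little above the highest control. Polr1c rose by 0.57 on the log2 scale (SE 0.13, limma adjusted p = 0.0135, higher in 4 of 4 libraries), and its coefficient of variation of 21.4% was the highest of any member in the Prmt5-null group. Without mouse 10770 the rise was 0.44 (limma adjusted p = 0.0108, with alternatives from 0.000541 to 0.0495).

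The remaining RNA polymerase I members did not pass the test. Rrn3, the factor that brings the polymerase to the promoter, lay at 7368 to 7643 normalized counts in Prmt5-null and 6578 to 7266 in control, without overlap (log2 fold change 0.12, limma adjusted p = 0.251). Ubtf, which binds the ribosomal DNA, was at 10523 to 12401 and 10263 to 12572 (log2 fold change -0.01, interval -0.20 to 0.17). For Polr1b and Polr1e, 2 further subunits, the log2 fold changes were -0.07 and 0.07.

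Tcof1 encodes treacle, a nucleolar protein that works with Ubtf in ribosomal DNA transcription. Its total level was 10210, 8841, 8574 and 10017 normalized counts in Prmt5-null and 9480, 8385, 8551 and 8858 in control, overlapping (log2 fold change 0.09, interval -0.08 to 0.27). Tcof1 also had an event in the splicing tables, which list events chosen for a difference, so no test was made. A cassette exon of 144 bases, a multiple of 3 that keeps the reading frame, had inclusion levels of 0.844, 0.878, 0.900 and 0.940 in control and 0.547, 0.626, 0.655 and 0.678 in Prmt5-null. The genotypes did not overlap, the mean difference was -0.264, and 260 to 383 reads per library covered the event.

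The 4 box H/ACA proteins had no called change in limma, edgeR or DESeq2. Dkc1, the pseudouridine synthase of these particles, lay at 6414, 6779, 6721 and 6884 normalized counts in Prmt5-null and 7471, 7263, 7589 and 7679 in control. All Prmt5-null libraries were lower, but the difference was small (log2 fold change -0.16, SE 0.06, limma adjusted p = 0.112). Nhp2, a core protein of the same particle, was at 5408, 4201, 5758 and 4442 normalized counts in Prmt5-null and at 5414, 5262, 4836 and 4940 in control, overlapping. Gar1 and Nop10, the other core proteins, had log2 fold changes of -0.16 and 0.15 with intervals that span 0, and in the group 1 member had an unadjusted p below 0.05.

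Small subunit assembly held 2 called members of 20, both lower, beside 7.33% of all genes called lower. Imp4, which joins the U3 snoRNA to the precursor together with Imp3, was at 3606, 3037, 3558 and 2966 normalized counts in Prmt5-null and at 4389, 4435, 4238 and 4346 in control. The control libraries were close together and all above the Prmt5-null ones. Imp4 fell by 0.41 on the log2 scale (SE 0.08, limma adjusted p = 0.00655, lower in 4 of 4 libraries), and the adjusted p ranged from 0.000155 to 0.0277 over the alternatives. Its partner Imp3 had a log2 fold change of 0.09 (interval -0.08 to 0.25).

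Noc4l, which pairs with Nop14 in the nuclear steps of small subunit assembly, was at 3390, 3139, 3008 and 3013 normalized counts in Prmt5-null and 3978, 3753, 3604 and 4024 in control, with no overlap. It fell by 0.29 on the log2 scale (SE 0.07, limma adjusted p = 0.0209, lower in 4 of 4 libraries). The call was lost without mouse 10771 (adjusted p = 0.0728, limma) and without CTRL-10650 (0.0592) or CTRL-10597 (0.0648), within a range of 0.00286 to 0.0728. For Nop14 the log2 fold change was -0.09 (interval -0.29 to 0.10).

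The other small subunit members had log2 fold changes from -0.16 to 0.19. Among those whose genotypes did not overlap, Ltv1, which takes part in export of the small subunit, had a mean of 2101 ± 94.0 normalized counts against 2349 ± 73.1 in control (SD, n = 4 each, limma adjusted p = 0.151). Utp15, of the complex that binds the precursor first, lay at 4793 to 5387 against 4239 to 4682 (adjusted p = 0.156, limma). Heatr1, another early factor, varied little between Prmt5-null libraries, at 10335 to 10584 normalized counts in Prmt5-null and 9684 to 11467 in control. Dimt1, a methyltransferase of the small subunit RNA, was the lowest of the group, at 555 to 666 normalized counts in Prmt5-null and 528 to 596 in control. Nat10, which acetylates the same RNA, had a log2 fold change of -0.14 (interval -0.31 to 0.03). Wdr75, Utp14a, Bysl, Nop9, Wdr43, Ddx10, Rrp12, Tsr1, Utp18 and Utp20 also overlapped between the genotypes, with log2 fold changes from -0.12 for Wdr75 to 0.17 for Utp20.

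Nob1, the nuclease that makes the final cut of the small subunit RNA, had both a small difference in level and an event in the splicing tables. Its levels were 2454, 2013, 2473 and 2351 normalized counts in Prmt5-null and 2001, 2043, 1989 and 2086 in control, overlapping in mouse 10618 (log2 fold change 0.19, limma adjusted p = 0.147). Without that library Nob1 passed the threshold, at a log2 fold change of 0.26 (limma adjusted p = 0.0447, with alternatives from 0.0447 to 0.284). The long form of its exon had inclusion levels of 0.837 to 0.953 in control and 0.926 to 1.0 in Prmt5-null, with overlap, and the short form had at most 6 reads in a library. The long form adds 841 bases and is annotated in 0 protein-coding transcripts and 1 of another type. The short form is in 1 protein-coding transcript and 1 of the nonsense-mediated decay type.

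Members of large subunit assembly included no called gene in limma or edgeR. In limma 4 of 13 had an unadjusted p below 0.05, without a share over all genes beside it. DESeq2 called 1 of them, Wdr12. This protein forms a complex with Pes1 and Bop1. The log2 fold changes were 0.25 for Wdr12, 0.04 for Pes1 and -0.19 for Bop1, none of them past the threshold in limma, and differences between these genes were not tested. Wdr12 lay at 3747, 3668, 4587 and 3583 normalized counts in Prmt5-null and at 3396, 3350, 3111 and 3162 in control, without overlap (limma adjusted p = 0.0765, from 0.0351 to 0.175 over the alternatives). Without mouse 10770 the log2 fold change was 0.17. Ppan, another large subunit factor, was at 4811 to 5394 against 4055 to 4614 (log2 fold change 0.21, limma adjusted p = 0.0906), also without overlap. Noc2l, which pairs with other Noc proteins on the large subunit precursor, lay at 12822, 10159, 11517 and 10817 normalized counts in Prmt5-null and 9836, 9634, 9071 and 10224 in control (log2 fold change 0.22, limma adjusted p = 0.101). Only mouse 10618 fell within the control range. The remaining large subunit members, Rrs1, Nop16, Nop2, Rrp1b, Grwd1, Ebna1bp2, Noc3l and Ddx18, overlapped between the genotypes, with log2 fold changes from -0.14 for Rrs1 to 0.02 for Ddx18.

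Among the abundant nucleolar proteins, which included Npm1, Ncl and Ddx21, no member had a called change in limma, edgeR or DESeq2, and no unadjusted p below 0.05 in limma. Npm1, nucleophosmin, had 17726 normalized counts per kilobase of exon in the control libraries, the highest level per length of the members and above 98.7% of genes tested. Next per length came Nhp2, at 4462, and Ncl, nucleolin, at 3799 normalized counts per kilobase. Npm1 lay at 52293, 47943, 54780 and 48015 normalized counts in Prmt5-null and 46693, 49588, 42187 and 50490 in control, overlapping (log2 fold change 0.10, interval -0.09 to 0.30). The low end per length was formed by Dimt1, at 149, and Fbl, at 192 normalized counts per kilobase.

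Ncl spread widely within each genotype. Its libraries were at 51069, 42333, 31606 and 35498 normalized counts in Prmt5-null and at 33372, 36507, 39796 and 45122 in control. The mean was 40126 ± 8537 in Prmt5-null and 38699 ± 5021 in control (SD, n = 4 each), and the log2 fold change was 0.04 (interval -0.28 to 0.35). Nolc1, which shuttles and binds snoRNPs, lay at 8216, 6958, 6861 and 7537 against 8847, 7485, 8077 and 8904 (log2 fold change -0.17, limma adjusted p = 0.204). Ddx21, an RNA helicase of the nucleolus, and Gnl3, nucleostemin, had log2 fold changes of -0.15 and -0.17 with intervals that reach above 0. For Mybbp1a, a nucleolar protein that binds Myb, the log2 fold change was 0.05 (interval -0.15 to 0.26).

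**Figure D3:**
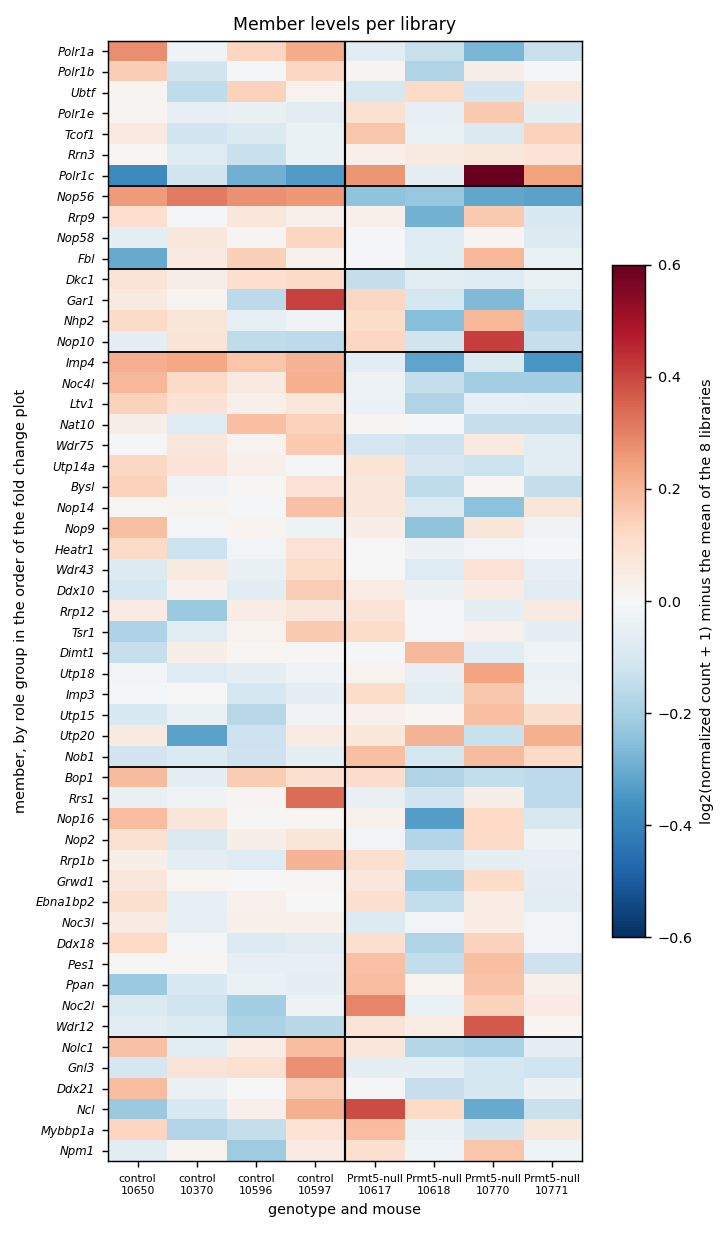
Deviation of each member (rows, by role) from its mean over the 8 libraries (columns), on the log2(normalized count + 1) scale, red above and blue below the mean. The rows of Nop56, Imp4, Polr1a, Noc4l and Polr1c separate by genotype, as do, with smaller differences, those of Dkc1, Ltv1, Rrn3, Ppan, Wdr12 and Utp15.

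**Figure D4:**
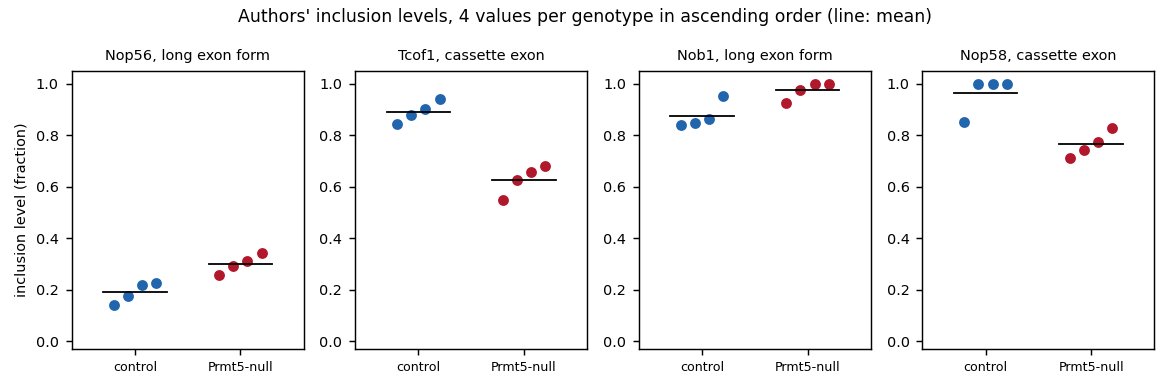
Inclusion levels computed from the authors' read counts (y axis, fraction) of 1 event in each of 4 members, 4 values per genotype in ascending order with the mean as a line. Control (blue) and Prmt5-null (red) values do not overlap for Nop56, Tcof1 and Nop58, and overlap for Nob1. By junction reads alone those of Nop58 overlap too.

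Members with an event in the splicing tables were counted beside all genes. Of the 54 members 4 had an event in any of the 5 tables, or 7.41%, against 11.4% of the 13300 genes with a mean above 50. With at least 20 reads in each library 3 members remained, or 5.56%, against 7.71% of those genes. With a mean difference of at least 0.25 only Tcof1 remained, or 1.85%, against 2.68%.

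Other genes of the pathway, 102 that are not members, were taken from lists by role. Of these 4, or 3.92%, were called lower and 9, or 8.82%, higher, against 7.33% and 6.51% of all genes. None reached 1.5-fold with limma, edgeR or DESeq2. An unadjusted p below 0.05 in limma was found for 24, without a share over all genes beside it. The largest falls were those of Wdr46 (log2 fold change -0.38, SE 0.08), Nom1 (-0.36, SE 0.08) and Nvl (-0.32, SE 0.07). The largest rises were those of Rrp36 (log2 fold change 0.43, SE 0.09), Rrp7a (0.41, SE 0.08) and Taf1c, a subunit of the RNA polymerase I selectivity factor (0.38, SE 0.11). The number called higher was 3 to 8 when 1 library was left out, and 3 without each of 10617, 10771 and CTRL-10650. The number called lower was 3 to 7, with 7 without 10770.

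Myc, a transcription factor that activates many of these genes through the E-box CACGTG, had 1970 to 3065 normalized counts in Prmt5-null and 2386 to 3202 in control (log2 fold change -0.18, limma adjusted p = 0.380). Of 11 genes of the Myc network 1 was called lower (Mxd3) and 2 higher (Mycl and Mxd4). Of 15 proliferation genes 2 were called lower, Top2a and Mcm7. Of 4 germinal center markers 2 were called higher, Fas and Mef2b, while 3 had log2 fold changes above 0 and 1, Bcl6, below. Of 5 plasma cell markers 2 were called lower, Prdm1 and Xbp1, while 3 had log2 fold changes below 0 and 2 above. Those above 0 were Sdc1 (0.16) and Irf4, which was higher without overlap (log2 fold change 0.19, limma adjusted p = 0.134). The plasma cell markers thus did not move in 1 direction. Among all genes tested 7.33% were called lower and 6.51% higher.

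RefSeq promoters of GRCm38.p6, from 250 bases before to 50 bases after the start, were found for 48 of the 54 members. Of these 11, or 22.9%, held CACGTG, which reads the same on both strands, against 8.09% of 27025 genes with a promoter in the table. Those genes were not limited to expressed ones, whereas all members passed the filter on level. The 2 shares are thus not matched, and their difference was not tested. One window is printed for the E-box member with the largest change in each role group that has one, with CACGTG in capitals:
Imp4 (chr1:34439696-34439725, plus strand): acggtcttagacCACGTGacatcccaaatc
Nop2 (chr6:125131811-125131840, plus strand): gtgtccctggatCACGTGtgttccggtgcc
Rrn3 (chr16:13780472-13780501, plus strand, the first of 2): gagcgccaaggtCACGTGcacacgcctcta
Mybbp1a (chr11:72441355-72441376, plus strand): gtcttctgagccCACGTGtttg
The 11 members with the motif had a median log2 fold change of 0.04, with 1 called, Imp4. The 37 without it had a median of -0.06, with 3 called lower and 1 higher, beside 7.33% and 6.51% of all genes. A match is a description of letters and not of a bound site.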

How the data were processed

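Total RNA was measured in 8 libraries. The authors depleted ribosomal RNA, trimmed reads, aligned them to GRCm38 (mm10) and counted them on Ensembl genes. The submitters' processing notes name Trimmomatic 0.32, STAR 2.3.0e, featureCounts 1.4.4 and DESeq2 1.14.1. The values deposited by the authors are a normalized signal, counts divided by a DESeq2 size factor, and 100% of them came out as whole reads in each library (tolerance 0.001). The strand setting of the counting is not given in the sources used here, so the 24 members with a gene on the other strand are uncertain. These include the called members Nop56 (with Idh3b), Imp4 (with Gm28306) and Polr1a (with Gm19078 and Gm26628). Uniquely mapped reads undercount genes with near-identical copies.

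The authors also deposited rMATS tables with read counts, inclusion levels as a fraction, and columns of p-values, FDR values and differences. The latter hold the authors' own comparisons and were not used. The tables keep selected events per gene, and their lists cannot be assigned to single libraries. Inclusion levels were computed from the deposited read counts and form lengths. Those by junction reads were used as deposited. No SD or test was made.

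Genotypes were compared by limma 3.58.1 (R 4.3.3) after log2(normalized count + 1), allowing a mean-variance trend, over 16250 of 39017 genes with a mean of at least 10, with Benjamini-Hochberg adjustment. Fold changes are on that scale. Scripts were tested on simulated data. edgeR 4.0.16 and DESeq2 1.42.0 on the recovered reads were alternatives, as were other pseudocounts, filters, normalizations and thresholds. Further alternatives left out each library or added a block of 2 assumed experiments. No label ties an experiment to a library, so all 18 placements with 2 libraries of each genotype per experiment were fitted. Libraries are from separate mice and share no replicate number. Lengths are merged GENCODE exons, and sequences at splice sites were read from GENCODE transcripts, 1 of which retains the intron. Tables were made with Python 3.11.15 and pandas 2.3.3.

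The members and the other lists were chosen with earlier results of these data known. Any member could be named. Values of every library are given for called members, the largest change of each role group, the 3 highest levels per length and members with a splicing event. Other pathway genes named are at most the 3 largest called in each direction. Values of Ltv1, Rrn3, Ubtf, Heatr1, Utp15, Dimt1, Ppan, Noc2l and Snord82 were added after their values were seen. Intervals are for the mean difference between genotypes. They rest on the spread between these mice, moderated over all genes tested.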

Additional observations from a re-analysis of the deposited data

Results flagged for a closer look

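Among the 14 members that the rule for library values selects, each with 2 groups of 4, 1 library lay apart from the other 3 of its genotype by Dixon's ratio at the 95% level. Wdr12 was at 4587 normalized counts in the Prmt5-null library of mouse 10770, while the other 3 Prmt5-null libraries were at 3583 to 3747, and the gap was 0.837 of the range. Chance flags about 1 in 20 groups, and 28 groups were examined.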

How the results depend on the processing

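Nop56, Imp4 and Polr1c were called under every alternative at an adjusted p of 0.05, and Nop56 and Imp4 at 0.01, where 2 members were lower, 0 higher, 1 other pathway gene lower and 2 higher. Polr1a lost its call without a trend (adjusted p = 0.0736, limma) and in some placements of the experiment block (up to 0.0554). Members called higher numbered 2 with DESeq2 and 2 in the highest of the 18 placements of the experiment block, and 1 member was higher at 1.5-fold with edgeR and with DESeq2. Leaving out 1 library gave 2 to 4 members lower, 1 to 2 higher, 0 to 1 higher at 1.5-fold (1 without 10618 or CTRL-10370), 3 to 7 other pathway genes lower and 3 to 8 higher. Other pathway genes higher numbered 5 with no filter, 3 without a trend, 14 with DESeq2 and 3 in the lowest placement. With an inclusion difference of at least 0.25, 1 member had a splicing event, or 1.85%, against 2.68% of genes with a mean above 50. Signs reversed for Ncl with quantile normalization (log2 fold change -0.0037, adjusted p = 0.993, limma), without 10617 and without CTRL-10650 (-0.031), and for Nhp2 without 10618. Leaving out 1 library gave log2 fold changes of -0.087 to 0.14 for Ncl and -0.13 to 0.018 for Nhp2. Neither gene was called, and the cause was not tested. No paired analysis was possible because the libraries share no replicate numbers. With 4 libraries per genotype, small changes of single members can be missed.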
